A study of Mus musculus with 6 samples.

Results

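Expression of 10 genes that receive, carry or restrain TGF-beta and BMP signals was compared between blood stem and progenitor cells with and without miR-21. The genes were Tgfbr1, Tgfbr2, Bmpr2, Smad2, Smad3, Smad6, Smad7, Ski, Skil and Tgif1, chosen by symbol, and each had 1 probe set annotated to it alone, so that 10 of the 65956 probe sets on the array are described. The cells were Lineage- c-Kit+ Sca1+ (LSK) cells, a fraction sorted from bone marrow that holds the stem cells and the earliest multipotent progenitors. In 3 samples they came from miR-21flox/flox:Mx1-Cre+ mice, here called knockout, and in 3 from miR-21flox/flox:Mx1-Cre- littermates, here called control. Mice of both genotypes had received 7 injections of 250 µg of the double-stranded RNA analogue pIpC, starting at 4 to 6 weeks of age, and cells were sorted 4 weeks after the injections. The Mx1 promoter that drives Cre answers the interferon that pIpC induces, in blood cells and also in other cells that answer interferon. Only the knockout mice carried Cre, so effects of Cre and of miR-21 loss cannot be told apart.

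Ligands of the TGF-beta family bring together type I and type II receptor kinases at the cell surface. The activated type I receptor phosphorylates receptor Smads, which join Smad4, enter the nucleus and act on target genes. Inhibitory Smads block this at the receptor, and the nuclear proteins Ski, Skil and Tgif1 recruit corepressors to Smads. In bone marrow TGF-beta is known for holding stem cells in quiescence. The microRNA miR-21 represses transcripts that pair with its seed, bases 2 to 8 of the mature strand, and Tgfbr2, Bmpr2 and Smad7 have been reported among its targets in other cell types.

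The removed microRNA is shown because its seed sets which transcripts it can pair with. Mature sequences were taken from RefSeq (GRCm38.p6), and 2 of the 1738 mature mouse miRNAs in that table carry the seed, given in capitals. The mature strand of the deleted gene lies at chr11:86584120-86584141 on the minus strand, and that of miR-21c at chr8:128278188-128278208, also on the minus strand. Seed sites in the transcripts of the 10 genes were not analysed here.
mmu-miR-21a-5p: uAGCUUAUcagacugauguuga
mmu-miR-21c: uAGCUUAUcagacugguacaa

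Of the 10 genes, 9 were lower in the knockout, 0 were higher and 1, Smad6, did not pass the test. Across all 19105 genes tested, 31.1% passed the same threshold, a limma adjusted p under 0.05, with 12.0% lower and 19.1% higher. The median change of the 10 was -0.63 on the log2 scale, beside 0.07 over all genes tested, and 7 of them lay below the 5th percentile of all changes (-0.41). Changes are knockout means minus control means of the log2 values. For the same 9 genes every knockout array lay below every control array, while the groups failed to overlap for 48.0% of all genes. The 10 genes were chosen with earlier results of these data known, so these counts describe them and do not test them as a group. In these bulk samples, fewer cells of a type and less RNA per cell cannot be told apart.

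**Figure D1:**
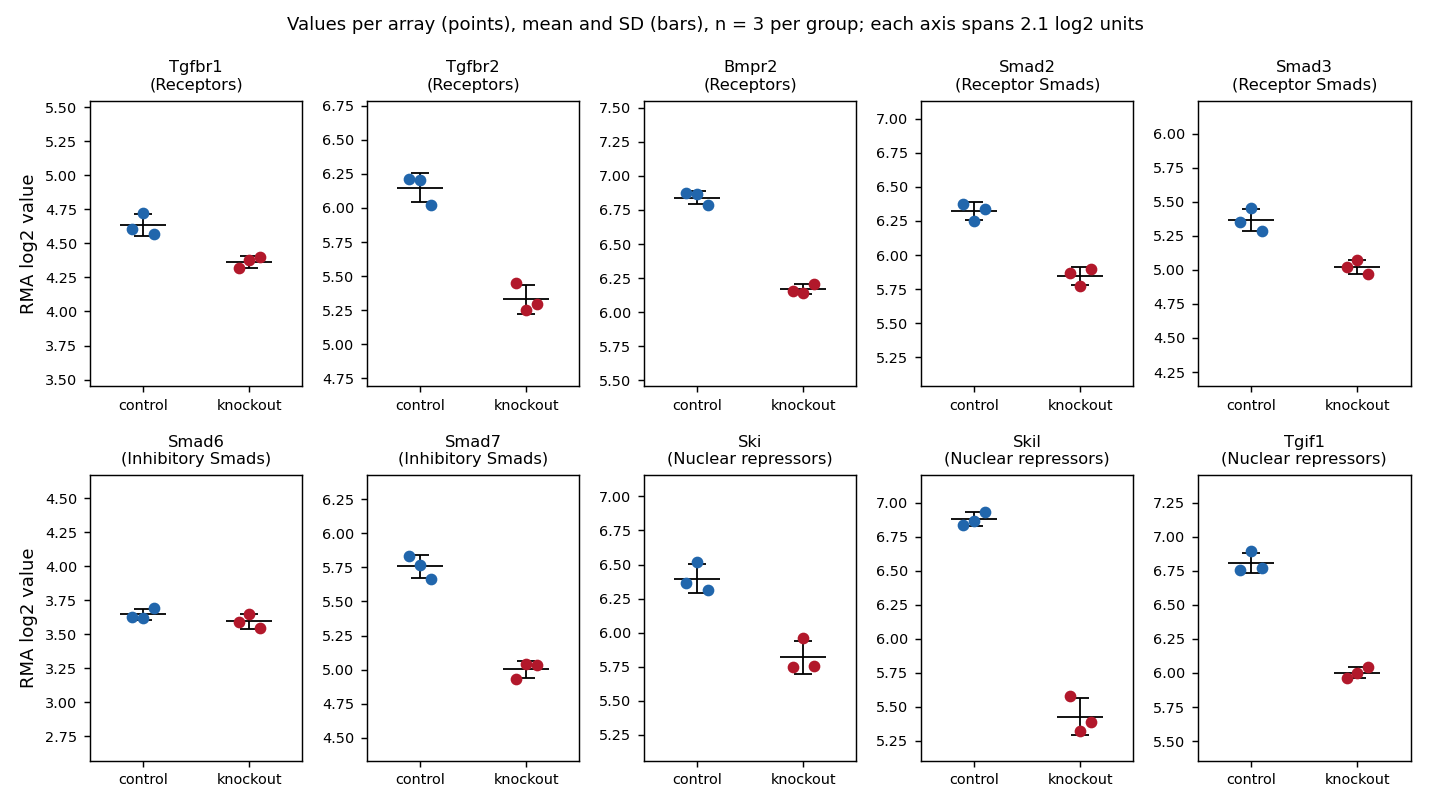
RMA log2 values of the 10 genes on each of the 6 arrays (points, control in blue and knockout in red) with the mean and SD of each group (n = 3); every vertical axis spans the same number of log2 units. The groups are apart for 9 genes, most widely for Skil (5.43 against 6.88), and overlap for Smad6.

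All 3 receptors fell. Tgfbr2 encodes the type II receptor, which binds TGF-beta and activates Tgfbr1. It read 5.45, 5.25 and 5.29 on the knockout arrays and 6.21, 6.21 and 6.02 on the control arrays. The lowest control array was thus well above the highest knockout array. The change was -0.82 ± 0.08 (SE, 1.76-fold lower, limma adjusted p = 1.16e-04). Bmpr2, the type II receptor for BMPs, read 6.16, 6.14 and 6.21 in the knockout and 6.87, 6.86 and 6.79 in control. Its values lay close together within each group, with SDs of 0.04 and 0.05 (n = 3 each), and it fell by 0.67 ± 0.06 (SE, 1.60-fold lower, adjusted p = 5.95e-05).

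Tgfbr1, the type I receptor that phosphorylates Smad2 and Smad3, had the smallest change among the genes that passed. It read 4.32, 4.38 and 4.40 in the knockout against 4.60, 4.72 and 4.57 in control. The groups did not overlap, and the change was -0.27 with a 95% interval of -0.41 to -0.13 (adjusted p = 0.0125). The adjusted p rose to 0.04999, just under the threshold, without knockout replicate 1, and to 0.0444 without control replicate 2. Within arrays, the fall of Tgfbr2 exceeded that of Tgfbr1 by 0.55, with no overlap between the groups (exact two-sided permutation p = 0.1, the smallest that 3 arrays against 3 allow, and 0.15 adjusted over 6 pairs of related genes). The falls of Tgfbr2 and Bmpr2 differed by 0.14 (exact permutation p = 0.2, adjusted 0.24), and the array values of that difference overlapped between the groups.

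The start regions of Tgfbr2 and Bmpr2 are shown because these receptor genes fell together. Each window runs from 250 bases before to 50 bases after an annotated start, from RefSeq, and 12 windows of 7 of the 10 genes were searched on both strands. Capitals mark CAGAC, the SMAD box, and GGCGCC, a GC-rich element that BMP Smads bind. Of all 32851 windows of that length in the table, 49.6% hold CAGAC or its reverse complement and 11.9% hold GGCGCC. Among the 12 windows, 5 held the SMAD box and 3 the GC-rich element. Those with the SMAD box belonged to Tgfbr1, Tgfbr2 and Tgif1. Both Tgfbr1 and Tgif1 had more than 1 start among the 12, so the windows do not stand for separate genes. The window of Tgfbr2 (chr9:116175314-116175613, minus strand, GRCm38.p6) holds 1 SMAD box, and that of Bmpr2 (chr1:59764029-59764328, plus strand) holds 1 GC-rich element.
Tgfbr2: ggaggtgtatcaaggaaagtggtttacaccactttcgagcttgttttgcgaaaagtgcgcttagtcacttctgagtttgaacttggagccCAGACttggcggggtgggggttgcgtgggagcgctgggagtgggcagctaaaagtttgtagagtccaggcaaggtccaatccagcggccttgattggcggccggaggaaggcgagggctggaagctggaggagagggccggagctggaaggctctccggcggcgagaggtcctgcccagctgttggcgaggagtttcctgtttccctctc
Bmpr2: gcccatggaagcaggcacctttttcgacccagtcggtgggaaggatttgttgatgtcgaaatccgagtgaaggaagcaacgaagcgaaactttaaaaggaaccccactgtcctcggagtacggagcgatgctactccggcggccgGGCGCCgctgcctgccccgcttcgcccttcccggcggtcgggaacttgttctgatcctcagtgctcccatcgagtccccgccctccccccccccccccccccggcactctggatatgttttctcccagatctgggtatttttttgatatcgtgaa

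Both receptor Smads of the TGF-beta branch, which carry the signal from Tgfbr1 to the nucleus, fell. Smad2 read 5.87, 5.77 and 5.90 in the knockout and 6.38, 6.25 and 6.34 in control. Every control array was higher, and the change was -0.48 ± 0.06 (SE, 1.39-fold lower, adjusted p = 7.94e-04). Smad3, which unlike the main form of Smad2 binds DNA directly, read 5.02, 5.07 and 4.97 against 5.35, 5.45 and 5.29. It fell by 0.34 ± 0.06 (SE, 1.27-fold lower, adjusted p = 0.00444). The falls of Smad2 and Smad3 differed by 0.13, and the array values of their difference overlapped between the groups (exact permutation p = 0.3, adjusted 0.3). With 1 array left out, Smad2 minus Smad3 ran from -0.21 to -0.07, against -0.13 on all 6 arrays, and it moved by over 1.5 times without knockout replicate 2 (-0.07), without control replicate 2 (-0.21) or without control replicate 3 (-0.09).

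Of the inhibitory Smads, Smad7 fell and Smad6 did not pass the test. Smad7, which is induced by TGF-beta and brings ubiquitin ligases to the receptors, read 4.93, 5.04 and 5.04 in the knockout and 5.84, 5.77 and 5.66 in control. All knockout arrays were lower, with a change of -0.76 ± 0.07 (SE, 1.69-fold lower, adjusted p = 7.23e-05). Smad6, which acts mainly on the BMP branch, read 3.59, 3.65 and 3.54 against 3.63, 3.62 and 3.69. The groups overlapped, and the change of -0.05 had a 95% interval of -0.18 to 0.08 (adjusted p = 0.530). Its values lay above the dim level of 1.92. Within arrays, Smad7 lost 0.70 more than Smad6, with no overlap between the groups (exact permutation p = 0.1, adjusted 0.15), so this design could not show by that test that the changes of Smad6 and Smad7 differ.

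The start window of Smad6 (chr9:64022010-64022309, minus strand, GRCm38.p6) is shown because it holds the palindromic SMAD element GTCTAGAC, given in capitals. This element, which shares the letters AGAC with the SMAD box, was found in 0.213% of the 32851 windows (70 in all), and in 1 of the 12 windows searched. No window of Smad2, Smad7 or Skil was among these 12, so nothing is said here of the element in those genes. The match is a description of the letters and not of binding in these cells.
Smad6: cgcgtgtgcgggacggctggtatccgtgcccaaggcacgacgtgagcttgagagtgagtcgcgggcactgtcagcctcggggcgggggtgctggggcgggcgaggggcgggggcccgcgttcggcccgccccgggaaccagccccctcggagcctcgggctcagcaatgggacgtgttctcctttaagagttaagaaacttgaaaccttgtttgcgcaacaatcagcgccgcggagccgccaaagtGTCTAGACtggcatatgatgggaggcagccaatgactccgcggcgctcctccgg

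All 3 nuclear repressors fell, and Skil had the largest change of the 10 genes. Skil encodes SnoN, a relative of Ski that holds Smad targets silent and is itself a TGF-beta target. It read 5.58, 5.32 and 5.39 on the knockout arrays and 6.84, 6.86 and 6.93 on the control arrays. The gap between the nearest arrays of the groups was wider than the whole spread within either group. The change was -1.45 ± 0.08 (SE, 2.73-fold lower, adjusted p = 4.69e-06), the 49th lowest of 19105.

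Tgif1, a homeodomain protein that represses Smad2 and Smad3 targets, read 5.96, 6.00 and 6.04 in the knockout and 6.76, 6.89 and 6.77 in control. The arrays of each group lay close together, and the change was -0.81 ± 0.06 (SE, 1.75-fold lower, adjusted p = 3.25e-05). Ski read 5.75, 5.96 and 5.75 against 6.36, 6.52 and 6.31. Replicate 2 was the highest in both groups, and the groups did not overlap. Ski fell by 0.58 ± 0.08 (SE, 1.49-fold lower, adjusted p = 0.00101). Within arrays, the fall of Skil exceeded that of Ski by 0.87 and that of Tgif1 exceeded it by 0.23, with no overlap in either (exact permutation p = 0.1 for each, adjusted 0.15).

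**Figure D2:**
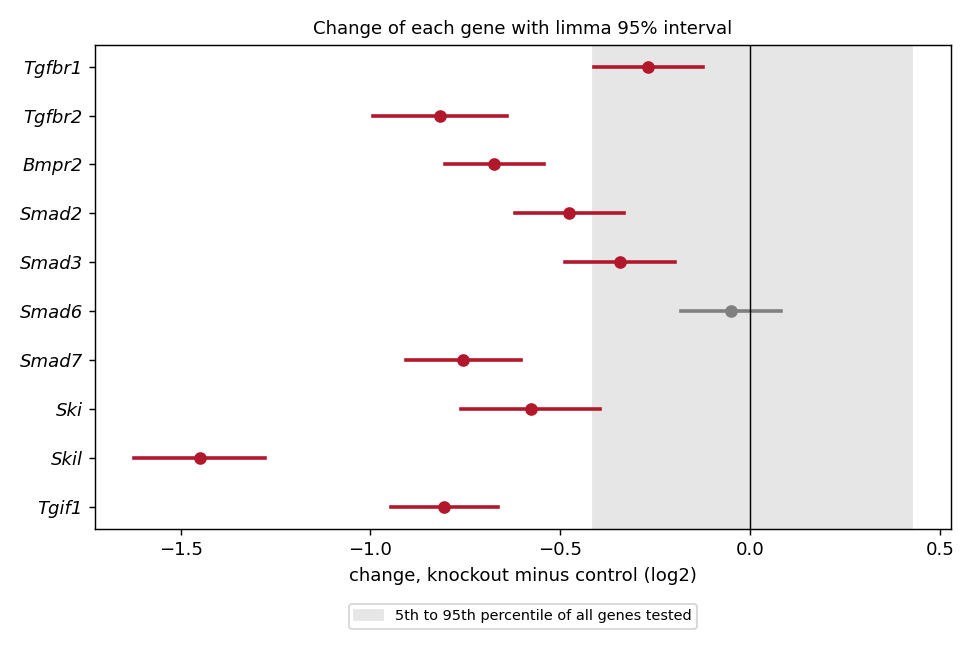
Change of each gene, knockout minus control on the log2 scale (points), with its limma 95% interval (lines); red marks genes past the adjusted threshold, grey Smad6, and the shaded band the 5th to 95th percentile of all genes tested (-0.41 to 0.43). The points of Skil, Tgfbr2, Tgif1, Smad7, Bmpr2, Ski and Smad2 lie below the band, and the intervals of Ski and Smad2 reach into it.

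**Figure D3:**
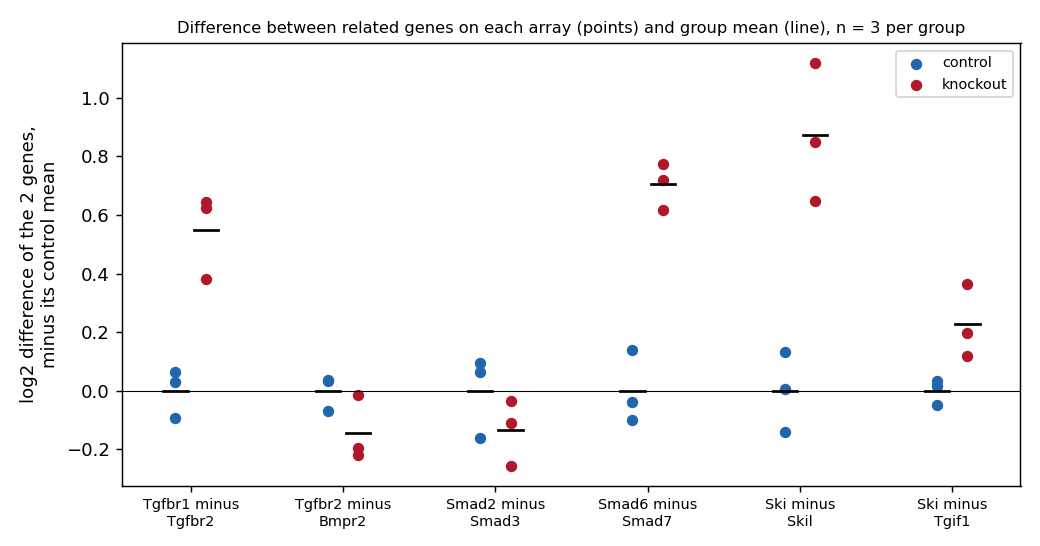
Difference between the log2 values of 2 related genes on each array, after its control mean was subtracted (points, control in blue and knockout in red), with group means (lines, n = 3). Knockout and control arrays are apart for Tgfbr1 minus Tgfbr2, Smad6 minus Smad7, Ski minus Skil and Ski minus Tgif1, with mean shifts of 0.55, 0.70, 0.87 and 0.23, and overlap for the pairs Tgfbr2 with Bmpr2 and Smad2 with Smad3.

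Of all other genes tested, those with profiles nearest to Skil were Phxr4, Nr4a2 and Smim3. Likeness was the mean absolute difference, over the 6 arrays, between 2 genes' deviations from their control means, and it was 0.06, 0.07 and 0.08 on the log2 scale. No member rose, so the same rule took Smad6 as the other end, for which Gm6305, Ctnnd2 and Trdv2-1 were nearest (0.01, 0.01 and 0.02).

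Other genes of the pathway, 145 in 8 lists by role, moved in both directions. Of 135 with a probe set of their own, 20 were too dim to test and 115 were tested. Of these, 29 (25.2%) fell and 13 (11.3%) rose, beside 12.0% and 19.1% of all genes, and the median change was -0.06. The number that rose was 8 without knockout replicate 1, knockout replicate 2 or control replicate 2.

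Of 22 ligands tested, 0 fell and 2 rose, Gdf3 by 0.84 (adjusted p = 1.96e-05) and Gdf5 by 0.36 (adjusted p = 0.0390), both members of the growth and differentiation factor group. The call on Gdf5 was kept without control replicate 2 and lost without any other single array (change 0.23 to 0.40) and with no filter on dim genes. The number of ligands that rose was 1 when knockout replicate 1 or 2, or control replicate 1 or 3, was left out, and the stricter filter on dim genes tested neither. The lowest change was that of Gdf11 at -0.16 (adjusted p = 0.0761). Most ligands tested had means under the 75th percentile of all probe sets (3.70), so the count of 0 falls says little of them. Tgfb1 was at 0.06 (adjusted p = 0.501). Proteins that release or trap ligands included the largest fall of the pathway outside the target genes. Of 16 tested, 4 fell and 1 rose. Thbs1, thrombospondin 1, which activates latent TGF-beta, fell by 2.27 ± 0.09 (SE, adjusted p = 1.23e-06), from 6.19, 5.98 and 6.07 in control to 3.96, 3.84 and 3.65. Furin, which cleaves the TGF-beta precursor, was at -0.62 and the latent TGF-beta binding protein gene Ltbp3 at -0.48, while the activin antagonist Fstl3 rose by 0.32.

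Among 10 other receptors and co-receptors, 3 fell and 3 rose. The activin type II receptor Acvr2a (-0.49), the decoy receptor Bambi (-0.48) and the co-receptor endoglin (Eng, -0.47) fell. The activin type I receptor Acvr1b rose by 0.36, and the other rises, of Acvrl1 (0.21) and Rgma (0.25), were small. The number of rises was 1 when replicate 1 or 2 of either group was left out. Of 9 other Smads and their anchors, 3 fell and 1 rose. Lemd3, an inner nuclear membrane protein that binds receptor Smads and limits their action, fell by 0.80 (adjusted p = 5.63e-05) and Strap, a partner of Smad7, by 0.39. The shared partner Smad4 was at -0.18 (adjusted p = 0.0548), and the BMP Smads Smad1 and Smad5 were at 0.06 and -0.10 (adjusted p = 0.532 and 0.308). The fall of the anchor Zfyve16 (-0.24) was kept without control replicate 3 and lost without any other single array, and the rise of Hgs (0.20) was kept without control replicate 1 and lost without any other and after arrays were centred on their medians.

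Nuclear partners of Smads had 6 falls and 0 rises among 12. Tgif2, the closest relative of Tgif1, read 4.32, 4.48 and 4.35 in the knockout and 5.18, 5.33 and 5.13 in control, a change of -0.83 ± 0.07 (SE, adjusted p = 7.89e-05). The repressor Zeb1 fell by 0.62, the coactivator Crebbp by 0.60 and the transcription factor Runx3 by 0.43. The highest change was that of Tcf3 at 0.17 (adjusted p = 0.0850). Of 15 ubiquitin ligases, deubiquitinases and phosphatases, 3 fell and 0 rose. They were the Smad phosphatase gene Ppm1a (-0.50), the deubiquitinase Usp9x (-0.41) and the ligase Nedd4l (-0.24, lost without knockout replicate 1). The ligases Smurf1 and Smurf2 were at -0.18 and -0.09 (adjusted p = 0.0765 and 0.290). The count of falls was 5 with a stricter filter on dim genes and 8 with replicate numbers as a block. The deubiquitinase Uchl5, at 0.26 (adjusted p = 0.118), passed with array weights and with that block, and was at 0.13 (adjusted p = 0.334) without control replicate 2.

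Smad-independent signalling genes showed 5 falls and 2 rises among 13. The p38 kinase activator Map2k3 (-1.04) and the adaptor Traf4 (-0.76) fell, and Tab1, a partner of the kinase TAK1, rose by 0.43. Falls numbered 3 without knockout replicate 2 or 3, and rises 1 without knockout replicate 2 or control replicate 2 or 3.

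Target genes of TGF-beta and BMP went both ways, 5 of 18 lower, 4 higher and 9 not past the threshold, with a median of 0.11. Hey1, which Notch also induces, fell by 2.39 ± 0.09 (SE, adjusted p = 9.72e-07), Bhlhe40 by 1.30, the p21 gene Cdkn1a by 1.08, Klf10 by 1.01 and the stress gene Gadd45b by 0.98. Myc, which TGF-beta represses in many cells, rose by 0.81 (adjusted p = 3.97e-05), and Tgfbi, Id2 and Id3 were at 0.43, 0.25 and 0.18. The rises numbered 2 without knockout replicate 3. Other signals control most of these genes as well. The list also mixes repressed genes such as Myc with induced ones, so its counts and median do not measure signalling. The BMP target Id1 was at 0.16 (adjusted p = 0.0983), and Cdkn1c and Cdkn2b were at 0.14 and 0.26 (adjusted p = 0.179 and 0.0648).

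**Figure D4:**
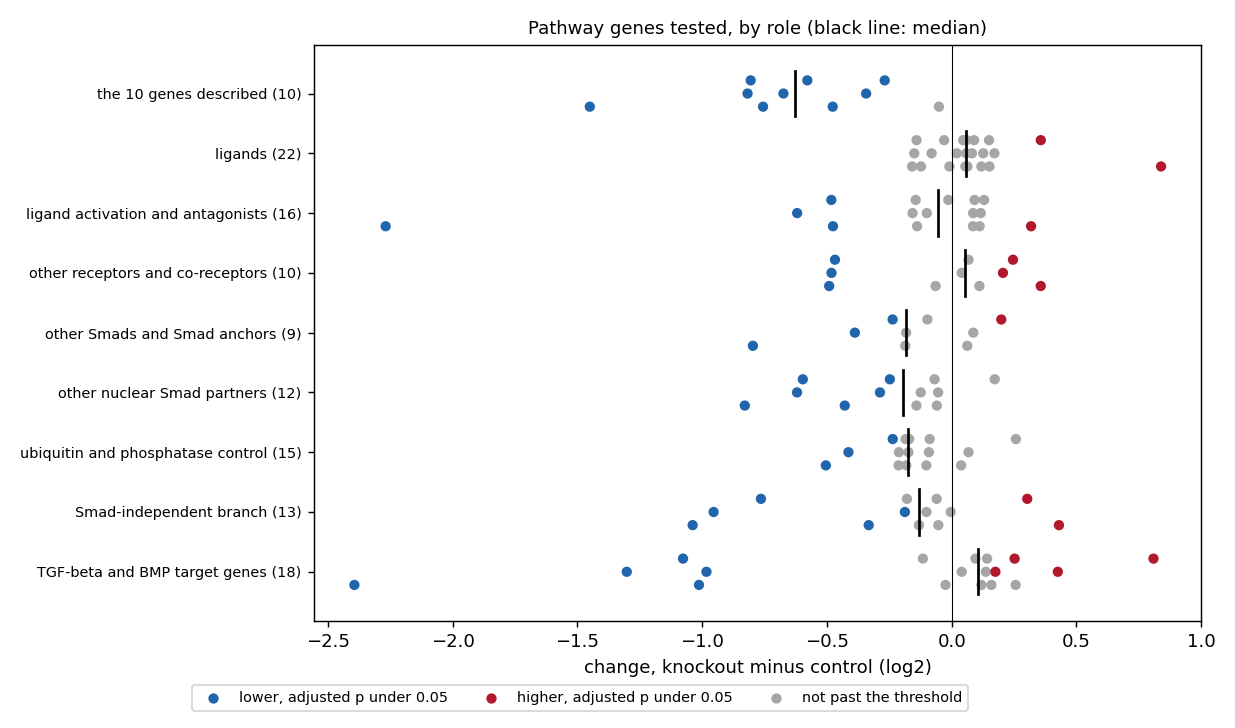
Change of every pathway gene tested, knockout minus control on the log2 scale, by role (number tested in brackets); blue points were lower and red higher at an adjusted p under 0.05, grey did not pass, and black lines are medians. The 10 genes described have a median of -0.63, and the medians of the 8 other lists lie between -0.19 and 0.11.

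Array medians lay between 1.89 and 1.95, correlations within groups between 0.995 and 0.997, and correlations between groups between 0.987 and 0.991. Of the genes that define the sort, Kit read 8.15 ± 0.04 in the knockout and 8.61 ± 0.07 in control (SD, n = 3 each), above the dim level in both, and no probe set was annotated to Ly6a (Sca-1) alone. Kit fell by 0.46, and of the 5 tested genes of the LSK list 4 fell (Kit, Flt3 at -0.47, Ptprc at -0.37 and Cd34 at -0.16 with limma's adjusted p = 0.0498), and Slamf1 rose by 0.54. The list's summed linear level was 1051.0 to 1069.1 in the knockout and 1311.4 to 1318.0 in control, and the part of this in the members' results was not tested. Markers of stem cells mostly fell, while those of myeloid progenitors, neutrophils and megakaryocytes mostly rose. Of 14 stem cell markers, 10 fell and 1 rose, and their summed linear level was 749.1 to 760.1 in the knockout and 1035.2 to 1077.5 in control. Of 13 myeloid progenitor markers, 11 rose and 2 fell (3278.1 to 3340.7 against 1508.3 to 1608.8). Of 12 neutrophil markers, 11 rose and 1 fell (508.1 to 578.2 against 235.4 to 276.0). None of the markers in these 3 lists that had a probe set was dim. Markers of megakaryocytes and platelets had 5 rises and 1 fall among 8 (264.9 to 269.8 against 222.4 to 228.8), with Gp6 and Clec1b dim. Of 7 lineage markers that the sort should remove, 2 rose and 1 fell (72.1 to 73.3 against 80.2 to 85.8), with Ms4a1 dim. The rise of Klrb1c started from a control mean of 1.85, under the dim level, so it passed the filter only through its knockout arrays (2.39). The other rise, of Ly6g, was also at low values (2.23 in control, 2.61 in the knockout). The lists share genes, so their counts and sums are not independent. Kit and Slamf1 stand in the LSK and stem cell lists, and Mmrn1 in the stem cell and megakaryocyte lists. Ly6g and Itgam stand in the neutrophil and lineage lists. The part of these markers in the falls of the 10 genes was not tested.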

How the data were processed

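Each array's log2 values stood in a column of the single table that the authors deposited. RMA, which corrects background, gives all arrays the same intensity distribution, removing a change shared by most transcripts, and summarises probes, is named in the submitters' processing notes. Its version and the genome build are not given in the sources used here, and a log base of 2 was inferred because the values reached 11.5. Genes were named through GEO's platform annotation with symbols updated through RefSeq (GRCm38.p6). A single gene was named for 31248 of the 65956 probe sets and several for 1502, and 33206 had no entry. The brightest probe set stood for a gene with several (368 symbols), and genes with a mean under the median of all probe sets (1.92) were left out as dim, 11666 in all.

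The sample titles gave the groups and the numbers of the biological replicates. Nothing says whether a replicate was 1 mouse or a pool, so p-values measure the spread between these arrays. The 19105 genes were fitted together with limma 3.58.1 under R 4.3.3 (two-sided moderated test from lmFit with eBayes, Benjamini-Hochberg, threshold 0.05), tested on simulated data. Related genes were compared by an exact permutation test over arrays. There is no count behind an array value, and 3 arrays per group limit the precision. The 10 genes, the lists and the tests were chosen with earlier results of these data known. The rule for named pathway genes took the 10 genes and, of each list, up to 4 that passed with the lowest p and its largest and smallest change. Tgfb1, Acvrl1, Rgma, Smad1, Smad4, Smad5, Smurf1, Smurf2, Gadd45b, Tgfbi, Id1, Id2, Id3, Cdkn1c and Cdkn2b were added after their values were seen, and 1 gene that the rule took is not reported here. Alternatives were scaling, the dim filter, probe set averaging, the variance model, a replicate block and leaving out each array. A summed level is the sum of the values taken back from log2.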

Additional observations from a re-analysis of the deposited data

How the results depend on the processing

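The 9 falls among the 10 genes kept their direction and their side of the threshold under all 14 alternatives, and Smad6 passed under none of the 13 that gave it a value (the stricter filter on dim genes removed it). The change of Skil ranged from -1.53 to -1.40 and that of Tgfbr1 from -0.30 to -0.22. With 1 array left out at a time, the genes higher in the knockout numbered 2331 to 3104 over all genes (3651 with all arrays, and 2331 without knockout replicate 3), and the other pathway genes that rose numbered 8 to 9 (13 with all arrays). The differences between related genes moved by less than the spread between arrays under each of their 9 alternatives. With the replicate number as a block, 7216 genes passed in place of 5949, and 9 of the 10 genes still fell. Deviations of same-numbered arrays from their group means had correlations of 0.22, 0.33 and 0.10, the last just under 0.1. Those of arrays with different numbers ran from -0.28 to 0.13, the highest for knockout replicate 3 with control replicate 1. The labels do not say that the numbers pair the samples, so the main fit and the permutation test left them out. A link between same-numbered arrays was not tested. Signal over background limits what can be said of dim genes, of which 20 belong to the pathway lists.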
